A study of Mus musculus with 5 samples.

Results

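Clustered peaks of γH2AX inside the mouse autosomes are described here, that is, listed peaks that have another peak of the same library close by and lie away from the chromosome ends. They were chosen by position in the authors' peak lists. A member lies on chromosomes 1 to 19, at least 10 Mb from the chromosome start and more than 10 Mb below the highest peak end of its chromosome over the 4 lists, and has another peak of the same list at a gap of at most 20 kb. By this rule 551 of the 11254 listed peaks are members (4.90%), out of 9140 peaks inside the autosomes, and they chain into 265 clusters. The rule used the gaps, so the number of members and the spacing of clusters are a description and not a finding, whereas scores, widths and the overlap between libraries were not used to choose them.

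The study used ChIP-seq, the sequencing of DNA pulled down with an antibody from fragmented chromatin, to map γH2AX in primary fibroblasts of mouse embryos, kept proliferating at passage 4. Both Rb copies, which encode the retinoblastoma protein, are wild type in Rb+/+ cells and absent in Rb-/- cells. In RbΔL/+ cells 1 copy and in RbΔL/ΔL cells both copies are the ΔL allele, whose product is altered in the cleft for partner proteins that carry the LXCXE motif. Each genotype has 1 ChIP library, all made with the same antibody lot, and an input library of DNA without immunoprecipitation is of a genotype that the labels do not give. The labels do not say how many embryos a library came from. No difference between genotypes can therefore be checked against replicates, no test was run, and intervals cover counting error only. The deposited read counts per repeat class totalled between 13731924 (RbΔL/+) and 17896985 (Rb+/+) per library. No peak list of the input was analysed here, so the reads of the input under these peaks were not examined.

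H2AX is a variant of the core histone H2A that kinases of the DNA damage response phosphorylate at broken DNA and at stalled replication forks, which gives γH2AX. Adaptor proteins that bind γH2AX recruit more kinase, and the mark spreads along the chromatin on both sides of the lesion, so that it is known for forming broad domains. The retinoblastoma protein represses E2F transcription factors and, through its LXCXE-binding cleft, brings chromatin regulators to DNA, and the title of the series ties a complex with E2F1 and Condensin II to replication stress.

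Most clusters were pairs of peaks, and the number of clusters followed the number of interior peaks in the list. In Rb+/+, 214 of 3108 interior peaks were members (6.89%, exact 95% binomial interval 6.02 to 7.83), in 103 clusters. RbΔL/+ had 229 members of 3118 interior peaks (7.34%, 6.45 to 8.32) in 111 clusters. RbΔL/ΔL had 65 of 1593 (4.08%, 3.16 to 5.17) in 31 clusters, and Rb-/- had 43 of 1321 (3.26%, 2.37 to 4.36) in 20. Members come at least in pairs and are not independent, so these intervals are too narrow. The 2 libraries with about 1.49 interior peaks per Mb thus had the larger shares, and those with 0.763 (RbΔL/ΔL) and 0.633 (Rb-/-) per Mb the smaller ones. When each list was limited to its 1632 highest-scoring peaks, the length of the shortest list, the 4 libraries had 24, 16, 20 and 20 clusters in the same order, and RbΔL/+ went from the most to the fewest.

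Pairs made up 246 of the 265 clusters (92.8%). There were 96 pairs, 6 triplets and 1 cluster of 4 peaks in Rb+/+, and 104 pairs and 7 triplets in RbΔL/+. RbΔL/ΔL had 28 pairs and 3 triplets, and Rb-/- had 18 pairs, 1 triplet and 1 cluster of 4. Both clusters of 4 peaks lay at the same place on chromosome 2.

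The number of members was only slightly above what an even scatter of the same peaks gives. That number was computed in closed form for peaks of the same widths laid independently and evenly over the interior of their own chromosome, with no account of assembly gaps or repeated DNA, and no p-value is attached to it. The computed number of members was 184 for Rb+/+, 185 for RbΔL/+, 49.1 for RbΔL/ΔL and 33.8 for Rb-/-. Rb+/+ listed 1.17 times its computed number (1.02 to 1.33) and RbΔL/+ 1.24 times (1.09 to 1.399). RbΔL/ΔL listed 1.32 times (1.026 to 1.68) and Rb-/- 1.27 times (0.924 to 1.70). The interval of Rb-/- includes 1, and since members come in pairs the lower bounds of the other libraries are too high as well. For clusters the listed numbers of 103, 111, 31 and 20 stood beside computed numbers of 90.4, 91.3, 24.3 and 16.8. Without the 5 places at which clusters of several libraries coincide, described below, the ratios of members fell to 1.13, 1.17, 1.14 and 1.06. With equal list lengths the ratio was 1.49 for Rb+/+ and 0.946 for RbΔL/+, and with a gap of 50 kb the ratio of Rb-/- was 0.938. When only peaks scoring 100 or more were kept, which leaves few, the ratios were 1.94, 36.1, 544 and 1.97.

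**Figure D1:**
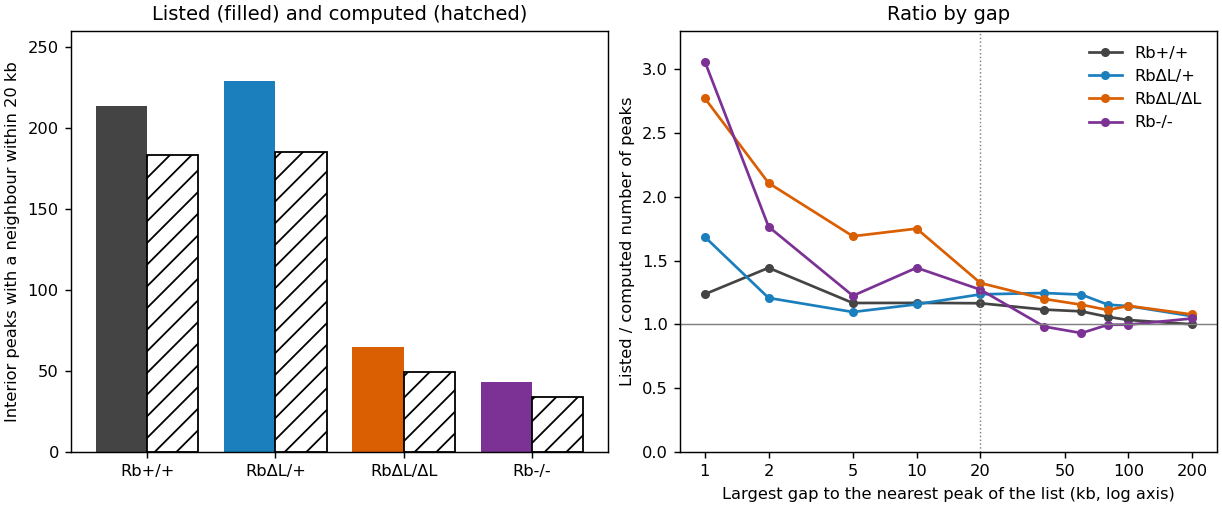
Left, number of interior autosomal peaks with a neighbour of the same list within 20 kb (filled bars, listed; hatched bars, computed for an even scatter). Right, ratio of the listed to the computed number against the largest gap allowed (kb, log axis; the dotted line is the 20 kb of the rule): at 20 kb the 4 libraries lie between 1.17 and 1.32, and at 1 kb RbΔL/ΔL and Rb-/- reach 2.77 and 3.06 on 9 and 7 peaks.

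By size of the gap, which is the value the rule used, the excess over the computed number lay at different gaps in different libraries. At gaps of at most 1 kb Rb+/+ had 16 peaks against 12.9 computed, RbΔL/+ 22 against 13.05, RbΔL/ΔL 9 against 3.24 and Rb-/- 7 against 2.29. All 7 such peaks of Rb-/- had a score of at least 100, as did 6 of the 9 in RbΔL/ΔL. In RbΔL/+ 5 of the 22 did, and 5 of the 16 in Rb+/+. The 7 peaks of Rb-/- lie in only 2 clusters, both at places shared with other libraries. Among other interior peaks, 47.0% of Rb-/- and 21.5% of Rb+/+ scored as high, against 3.88% of RbΔL/+ and 0.458% of RbΔL/ΔL. At the wider end, RbΔL/+ stayed above the computed number beyond the limit of the rule. Between 20 and 40 kb it had 215 peaks against 171 computed, and between 40 and 60 kb 194 against 161. In those bins Rb+/+ had 180 against 170 and 171 against 160, and Rb-/- had 22 against 32.4 and 26 against 31.5, below the computed numbers. In RbΔL/ΔL the excess sat at gaps of up to 10 kb, with 44 peaks against 25.1, while between 10 and 20 kb it had 21 against 24.0.

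The limit of 20 kb itself fell within a continuous range of gaps. The largest gap that counted was 19866 bp for Rb+/+, 19771 bp for RbΔL/+, 18969 bp for RbΔL/ΔL and 19549 bp for Rb-/-. The smallest gap that did not count was 20329, 20076, 20344 and 21146 bp. In the last 1 kb below the limit lay 9, 8, 0 and 4 peaks, and in the first 1 kb above it 8, 13, 4 and 0.

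A cluster typically spanned about 10 kb, little of which was covered by peaks. The rule bounds both values, since a pair spans at most 20 kb plus the widths of its peaks. No span was computed for an even scatter, so spans and covered shares are a description. Rb+/+ clusters had a median span of 11153 bp (quartiles 6063 and 15899) and RbΔL/+ clusters one of 12131 bp (6136 and 17092). The median was 7464 bp for RbΔL/ΔL (5598 and 11957) and 9138 bp for Rb-/- (7266 and 17267). The shortest cluster of each library measured 709, 843, 1053 and 3790 bp, and the longest 21842, 38124, 34285 and 20338 bp. In the median cluster peaks covered 7.09%, 7.11%, 7.69% and 7.42% of the span. Peaks covered more than 50% of the span in 6 clusters of Rb+/+, 6 of RbΔL/+ and 2 of each of the other libraries. All clusters of a library together spanned 0.0542%, 0.0633%, 0.0144% and 0.0111% of the interior of the autosomes.

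**Figure D2:**
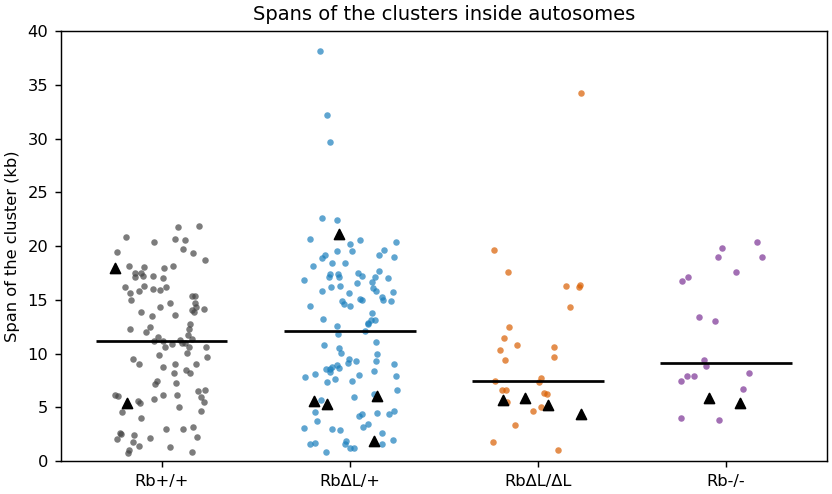
Span of each cluster (kb) by library, 1 point per cluster; black triangles are clusters at places where several libraries have one, and lines are medians. The medians lie at 11153, 12131, 7464 and 9138 bp, and 3 clusters of RbΔL/+ and 1 of RbΔL/ΔL exceed 25 kb.

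Clusters much longer than 20 kb hold more than a pair of peaks by the rule. The longest clusters were triplets of low score. In RbΔL/+ they lay on chromosome 9 at 83287950 to 83326073 (mm9; 38124 bp, scores of 61.39 to 69.93), chromosome 2 at 93363925 to 93396095 (32171 bp, 57.85 to 72.97) and chromosome 7 at 137257877 to 137287568 (29692 bp, 59.91 to 66.39). RbΔL/ΔL had its longest on chromosome 13 at 65373900 to 65408184 (34285 bp, 57.57 to 79.22). No other library had a peak within any of the 4, the nearest being a RbΔL/ΔL peak 34.6 kb from the one on chromosome 7. The score is the authors' own and larger for a smaller p-value. Since a library's depth and background enter it, scores are compared within a list only. In Rb+/+ the triplets with the longest spans were on chromosome 10 at 59748338 to 59770179 (21842 bp, scores of 64.77 to 72.03) and chromosome 11 at 17294969 to 17316780 (21812 bp, 70.46 to 127.85). The second of these enclosed a peak of RbΔL/ΔL (score 59.9) that overlapped none of its own peaks. In Rb-/- the longest was a pair on chromosome 19 at 18264913 to 18285250 (20338 bp, scores of 93.34 and 167.06).

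Median scores and widths of members lay near those of the other interior peaks of the list in Rb+/+ and the ΔL libraries, and somewhat above them in Rb-/-. The median score was 71.84 in members and 72.03 in other interior peaks of Rb+/+, 62.8 and 63.49 for RbΔL/+, 59.68 and 59.58 for RbΔL/ΔL, and 102.95 and 94.97 for Rb-/-. In the same order of libraries, median widths were 405 and 391 bp, 424 and 406 bp, 333 and 321 bp, and 385 and 332 bp. The medians thus lay well inside the quartiles of the other set in each library. In Rb-/- the 36 members outside the shared places had a median score of 95.685 and a median width of 337.5 bp, close to its other interior peaks.

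The top of the score range differed more. In RbΔL/ΔL, 10 of 65 members scored 100 or more (15.4%, 7.63 to 26.5) against 7 of 1528 other interior peaks (0.458%, 0.184 to 0.942). In RbΔL/+ 21 of 229 members did (9.17%, 5.77 to 13.7) against 112 of 2889 (3.88%, 3.20 to 4.65). In Rb+/+ the shares were 24.3% (18.7 to 30.6) and 21.5% (20.04 to 23.1), and in Rb-/- 55.8% (39.9 to 70.9) and 47.0% (44.3 to 49.8), with overlapping intervals. The 10 high members of RbΔL/ΔL all lay in 5 clusters, those at 4 places shared with another library and a triplet on chromosome 11. With the shared places left out, 3 of 56 members of RbΔL/ΔL scored 100 or more (5.36%, 1.12 to 14.9), all of them in that triplet. The other 53 reached at most 79.22, but the triplet is set apart there because of its scores. Outside the shared places, RbΔL/+ had 11 of 217 members at 100 or more, spread over 9 clusters (5.07%, 2.56 to 8.89), an interval that includes the share of its other interior peaks. High scores also occurred outside clusters, where the highest was 2233.31 for Rb+/+, 781.41 for RbΔL/+, 300.68 for RbΔL/ΔL and 1223.68 for Rb-/-. That of Rb+/+ is the unbroken peak at the shared place on chromosome 17, where the other libraries have clusters.

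**Figure D3:**
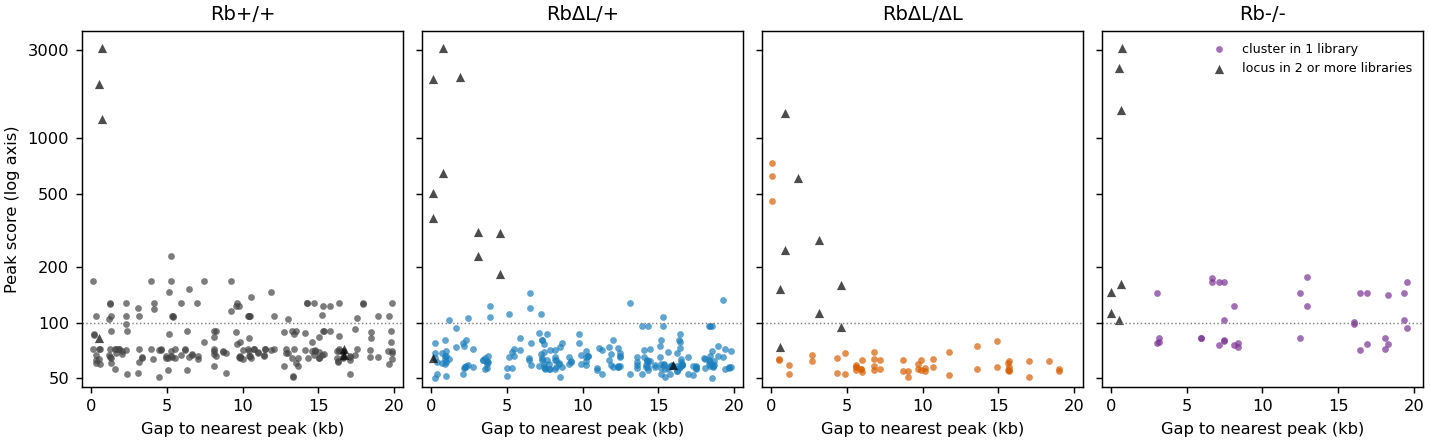
Score of each clustered peak (log axis) against the gap to the nearest peak of its list (kb), by library; black triangles are peaks of clusters at places where several libraries have one, and the dotted line is a score of 100. In all 4 libraries every member above 250 lies at a gap under 5 kb, and in RbΔL/ΔL members at gaps above 5 kb reach at most 79.22.

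The median score was highest at gaps of up to 1 kb in each library, with the larger differences in RbΔL/ΔL and Rb-/-. In RbΔL/ΔL the median score was 246.82 at gaps of up to 1 kb (9 peaks), 66.54 at 1 to 5 kb (13), 56.93 at 5 to 10 kb (22) and 57.57 at 10 to 20 kb (21). The 9 peaks come from the triplet on chromosome 11, the shared places on chromosomes 2 and 17 and a pair on chromosome 7 (scores 62.78 and 63.35). In RbΔL/+ the median score was 66.39, 64.25, 64.495 and 59.92 on 22, 33, 56 and 118 peaks, and the share at 100 or more was 22.7%, 27.3%, 7.14% and 2.54%. In Rb-/- the 7 peaks at gaps of up to 1 kb had a median of 161.93, against 80.625, 82.8 and 102.075 in the wider classes (4, 14 and 18 peaks). Those 7 are the peaks of the 2 shared places on chromosomes 2 and 17. In Rb+/+ the medians were 77.19, 72.03, 72.03 and 71.44 on 16, 42, 53 and 103 peaks, and the share at 100 or more was 31.25%, 26.2%, 28.3% and 20.4%.

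Clusters were rarely found at the same place in another library. The 265 clusters formed 257 places, of which 252 (98.1%) had a cluster in 1 library, 3 in 2 libraries, 1 in 3 and 1 in all 4. Counted by pairs of libraries, 12 pairs of clusters overlapped, where an even scatter of the same spans gives 0.244. RbΔL/+ and RbΔL/ΔL shared 4 pairs (0.0356 computed). Rb+/+ shared 2 with RbΔL/+ (0.128 computed), 1 with RbΔL/ΔL (0.0276) and 1 with Rb-/- (0.0198). Rb-/- shared 2 with RbΔL/+ (0.0271) and 2 with RbΔL/ΔL (0.00615). The 4 libraries meet at the same few places, so these pairs are not independent. Of the clusters in RbΔL/+, 5 of 111 lay at a shared place, of those in RbΔL/ΔL 4 of 31, in Rb+/+ 2 of 103 and in Rb-/- 2 of 20.

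At the shared place on chromosome 2, all 4 libraries had peaks at nearly the same positions, with 1 peak fewer in the ΔL libraries. It lies at 98502258 to 98507611 (mm9), a stretch that lists of regions with high signal in ChIP-seq libraries of any kind commonly hold, as background knowledge. The lists of Rb+/+ and Rb-/- gave 4 peaks there, at offsets of 0, 1559, 2817 and 4001 bp and of 0, 1534, 2816 and 3988 bp from the start. Those of RbΔL/+ and RbΔL/ΔL gave 3, at 33, 2859 and 4037 bp and at 80, 2779 and 4061 bp. The missing one was the second, which was also the lowest in the other 2 lists (82.35, rank 1423 in Rb+/+, and 103.69, rank 622 in Rb-/-). The peak nearest the far end ranked 1 in every list and the first one ranked 3, 2, 4 and 2 in Rb+/+, RbΔL/+, RbΔL/ΔL and Rb-/-. Over the 19 overlapping pairs of peaks of 2 libraries, starts differed by at most 80 bp and ends by at most 140 bp. Peaks covered 3319, 2521, 2455 and 3427 bp of the place in the 4 lists.

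At the place on chromosome 17, at 39979882 to 39985907, the libraries differed in how a single stretch was divided. As background, the mm9 assembly holds a copy of the 45S ribosomal RNA gene here, which is present in many copies in the genome. In Rb+/+ it was 1 unbroken peak of 6116 bp, so Rb+/+ had no cluster by the rule. RbΔL/+ had 2 peaks of 3880 and 2002 bp with a gap of 144 bp (scores 2107.06 and 504.4, ranks 3 and 8). RbΔL/ΔL had 2 of 3746 and 1510 bp with a gap of 586 bp (151.91 and 73.7, ranks 11 and 198). Rb-/- had 3 of 2245, 1419 and 1539 bp with gaps of 19 and 671 bp (112.8, 147.31 and 161.93, ranks 607, 187 and 175). The break nearest the far end was thus in about the same position in the 3 libraries, while the gap of 19 bp occurred in Rb-/- alone. With peaks closer than 1000 bp joined, no library had a cluster here.

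The places on chromosomes 9 and 11 had clusters in both ΔL libraries. On chromosome 9, at 65044130 to 65049799, RbΔL/+ had peaks of score 307.29 and 183.41 separated by 4583 bp. RbΔL/ΔL had peaks of 95.19 and 159.94 there, separated by 4610 bp. The higher peak was the first one in RbΔL/+ and the second one in RbΔL/ΔL. Starts of the overlapping peaks differed by at most 71 bp and ends by at most 16 bp. The nearest peak of Rb+/+ was 56.7 kb away and that of Rb-/- 261 kb away.

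On chromosome 11, at 87236216 to 87257306, RbΔL/+ had peaks of 309.45 and 228.92 (ranks 11 and 15) at a gap of 3107 bp and another, of 58.78, a further 15999 bp on. RbΔL/ΔL had peaks of 281.76 and 113.29 (ranks 7 and 16) at a gap of 3169 bp, and no such further peak. Starts differed by at most 103 bp and ends by at most 234 bp. Rb+/+ had its nearest peak at 79.6 kb and Rb-/- at 444 kb. At both places the 2 ΔL libraries therefore listed the same pair with nearly the same spacing, and the other 2 libraries listed nothing. A peak missing from a list is the absence of a call, and whether γH2AX was lower there was not tested. A score of 100 or more in both peaks was reached in both ΔL libraries on chromosome 11, but on chromosome 9 in RbΔL/+ alone.

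The last shared place, on chromosome 15 at 74899566 to 74917568, rests on a single common peak. RbΔL/+ had a tight pair of 779 and 911 bp with a gap of 162 bp (scores 64.44 and 367.74). Rb+/+ had a peak of 957 bp (score 66.66) that started 10 bp after the second of these, and its partner lay 16674 bp before it. RbΔL/ΔL had 1 peak of 1389 bp (score 52.02) and so no cluster. It covered the whole second peak of RbΔL/+ and 261 bp of the first (33.5%). The nearest peak of Rb-/- was 986 kb away. The high score was seen in RbΔL/+ alone, where the peak ranked 10, against ranks 2762 in Rb+/+ and 1893 in RbΔL/ΔL.

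**Figure D4:**
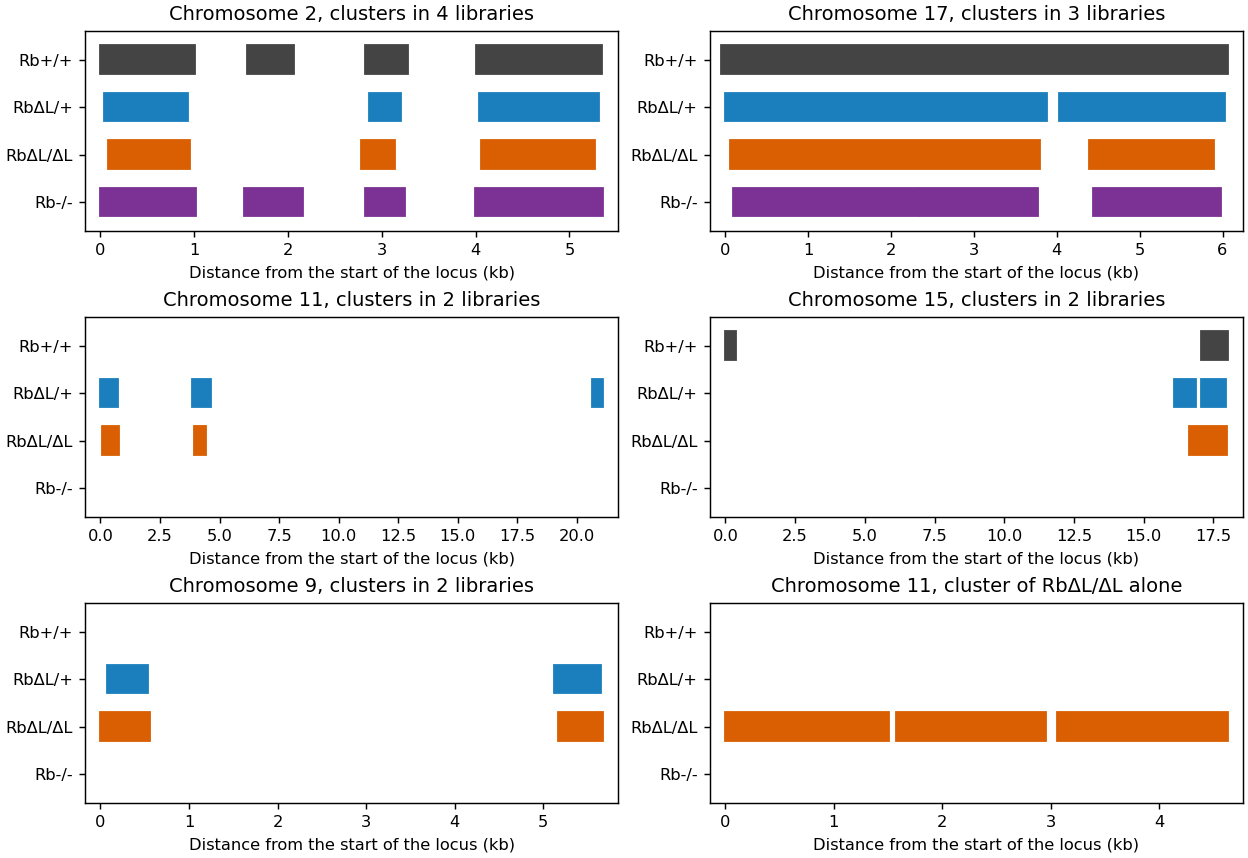
Peaks of the 4 libraries (coloured boxes, to scale) against the distance from the start of the place (kb) at the 5 places with clusters in several libraries and at the triplet of RbΔL/ΔL on chromosome 11. Positions coincide closely on chromosomes 2, 9 and 11, whereas on chromosome 17 Rb+/+ has 1 unbroken peak; the gap of 19 bp in Rb-/- is too small to be seen.

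Among the clusters found in 1 library, a triplet of RbΔL/ΔL stood furthest above the rest of its list. It lies on chromosome 11 at 74578883 to 74583510 and consists of peaks of 1510, 1377 and 1574 bp, ranked 2, 3 and 5 in the list, with gaps of only 66 and 101 bp. These widths compare with a median of 333 bp over all members of that library. RbΔL/+ had a peak of score 58.89 at 15.7 kb from it, and the nearest peaks of Rb+/+ and Rb-/- were 425 and 905 kb away. Of the 27 clusters found in RbΔL/ΔL alone, this was the 1 with a peak of 100 or more.

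The 3 highest-scoring clusters of RbΔL/+ all lay at shared places. In Rb+/+ and Rb-/- the highest-scoring clusters found in 1 library were pairs at wider gaps than in that triplet. In Rb+/+ they were pairs on chromosome 1 at 96796917 to 96802650 (scores of 167.75 and 230.64, gap 5316 bp) and chromosome 3 at 66415928 to 66425597 (116.11 and 167.75, gap 9214 bp). In Rb-/- they were pairs on chromosome 12 at 31232340 to 31245757 (123.76 and 177.97, gap 12951 bp) and chromosome 10 at 112914322 to 112921772 (167.06 and 175.68, gap 6673 bp). Every peak of a cluster reached 100 in 6 of the 101 clusters found in Rb+/+ alone. It did so for 2 of 106 such clusters of RbΔL/+, 1 of 27 of RbΔL/ΔL and 4 of 18 of Rb-/-. A score of 100 is common in some lists and rare in others. Among other interior peaks, 47.0% of Rb-/- and 21.5% of Rb+/+ reached it, against 3.88% of RbΔL/+ and 0.458% of RbΔL/ΔL. The counts of clusters are therefore not compared between libraries.

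Members overlapped a peak of another library more often than interior peaks in general. In Rb+/+ 8 of 214 members did so (3.74%, 1.63 to 7.23), against 0.772% of all its interior peaks. In RbΔL/+ it was 13 of 229 (5.68%, 3.06 to 9.51) against 1.12%, in RbΔL/ΔL 9 of 65 (13.8%, 6.53 to 24.7) against 1.51%, and in Rb-/- 8 of 43 (18.6%, 8.39 to 33.4) against 1.29%. Most of these members lay at the 5 shared places, outside which 3 of 208, 2 of 217, 0 of 56 and 1 of 36 members overlapped a peak of another library. A count of 0 of 56 allows up to 5.36% at 3 counts, and its exact upper limit is 6.38%. The shared places are defined by clusters that overlap, so leaving them out removes overlaps by construction, and these counts are not set against the background.

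A peak of another library was also near members more often than near other interior peaks in both ΔL libraries. A peak of another library lay within 20 kb of 29 members in Rb+/+ (13.6%), beside 12.5% of all its interior peaks. It did so for 49 in RbΔL/+ (21.4%, background 12.6%), 26 in RbΔL/ΔL (40%, background 15.3%) and 11 in Rb-/- (25.6%, background 17.5%). The intervals of RbΔL/+ (16.3 to 27.3) and RbΔL/ΔL (28.04 to 52.9) lay above the background, and those of Rb+/+ (9.27 to 18.9) and Rb-/- (13.5 to 41.2) included it. Members of the same cluster lie close together and can share a nearby peak of another library, so all intervals here are too narrow. Without the shared places, a choice that lowers the share by construction, Rb+/+ stood at 11.1% (7.14 to 16.1), RbΔL/+ at 17.1% (12.3 to 22.7), RbΔL/ΔL at 30.4% (18.8 to 44.1) and Rb-/- at 11.1% (3.11 to 26.1). The other interior peaks stood at 12.4%, 11.9%, 14.2% and 17.2%, so that the shares of both ΔL libraries stayed higher. The lower bound of RbΔL/+ (12.3) is so near 11.9% that an interval known to be too narrow does not separate them. No interval was computed with clusters as the unit, so whether RbΔL/ΔL would stay separate was not tested. The 17 members of RbΔL/ΔL behind its value lie in only 9 of 27 clusters, and those of RbΔL/+ in 24 of 106. Of the 9 clusters of RbΔL/ΔL, 4 were near a peak of RbΔL/+, 3 near one of Rb-/- and 2 near one of Rb+/+. No cause of the higher shares in the ΔL libraries was tested.

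**Figure D5:**
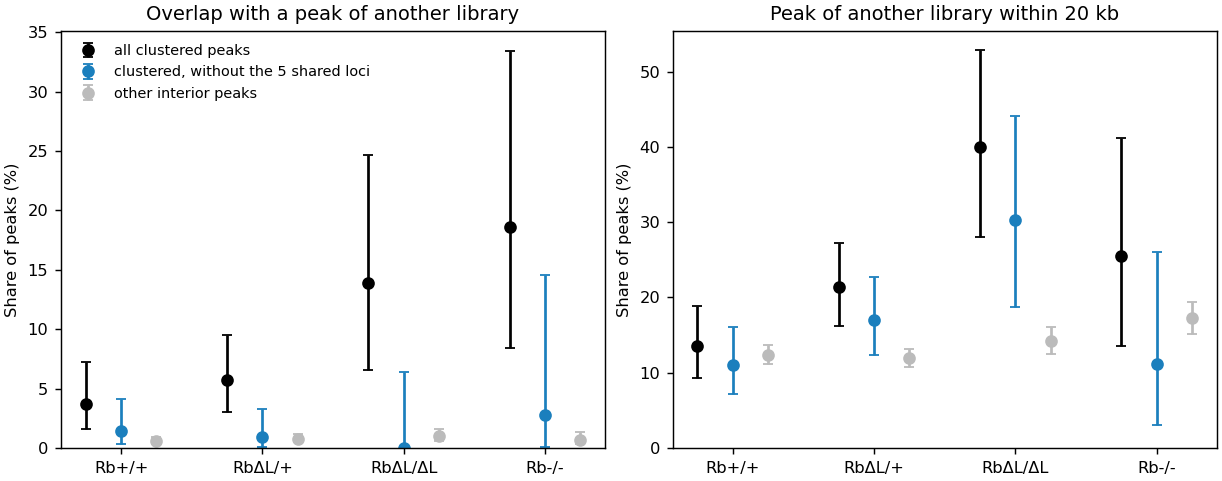
Share of peaks (%) that overlap a peak of another library (left) or have one within 20 kb (right), with exact 95% binomial intervals, for all clustered peaks (black), clustered peaks outside the 5 shared places (blue) and other interior peaks (grey). Leaving out the shared places, which are defined by overlapping clusters, removes overlaps by construction (0% to 2.78% are left); within 20 kb RbΔL/+ stands at 17.1% against 11.9% and RbΔL/ΔL at 30.4% against 14.2%.

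Clusters were spread over most autosomes. Rb+/+ had at least 1 on 18 of 19 autosomes, RbΔL/+ on 19, RbΔL/ΔL on 15 and Rb-/- on 11. The number exceeded the computed one on 10, 12, 11 and 9 autosomes. Where the computed number is below 1, a single cluster exceeds it, as on chromosomes 11 (0.948) and 19 (0.544) of Rb-/-. These counts of autosomes therefore say little of an excess in the short lists. Rb+/+ had 14 clusters on chromosome 1 (8.29 computed), 11 on chromosome 4 (5.43) and 10 on chromosome 5 (6.02). RbΔL/+ had 12 on chromosome 10 (5.95 computed) and 7 on each of chromosomes 12 (3.11) and 17 (3.89), but 6 on chromosome 1 and 4 on chromosome 4. The chromosomes with the most clusters thus differed between these 2 libraries. These chromosomes were picked after their values were seen.

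Along the interior of the autosomes, the part nearest the centromere had the smallest share of members in each library. With the interior divided in 3 equal parts from the centromeric end, members were 6.42%, 6.63% and 7.57% of the peaks in Rb+/+ and 4.74%, 8.31% and 8.45% in RbΔL/+. They were 2.04%, 5.84% and 4.09% in RbΔL/ΔL and 1.42%, 4.70% and 3.41% in Rb-/-. The intervals of the first and second parts did not overlap in RbΔL/+ (3.43 to 6.35 and 6.74 to 10.1) and RbΔL/ΔL (0.983 to 3.72 and 4.05 to 8.11). In Rb+/+ and Rb-/- they overlapped. Members come at least in pairs, so these intervals are too narrow, and the small distances between them do not separate the parts. The first part also held the fewest peaks in 3 of the 4 libraries, with 965, 887 and 490 in Rb+/+, RbΔL/+ and RbΔL/ΔL, and 422 in Rb-/-, where the last part had 410. The first 10 Mb of the autosomes, which the rule leaves out, had larger shares of peaks with a neighbour within 20 kb. They were 12.2% (8.01 to 17.7) for Rb+/+, 17.2% (12.5 to 22.7) for RbΔL/+, 8.26% (4.03 to 14.7) for RbΔL/ΔL and 21.1% (13.2 to 30.99) for Rb-/-. The last 10 Mb stood at 5.90%, 8.09%, 3.75% and 2.96%, near the values of the interior.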

How the data were processed

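Per the submitters' processing notes, the tools were Bowtie 1.0 and MACS 1.4.2 and the build was mm9, with no role or order stated. The settings, the control library and the read end behind the lists: not given in the sources used here. With each ChIP sample, the authors deposited peak positions and a score per peak (50 to 3100), read here as the p-based score of MACS although no header says so, and read counts per repeat class, of which only the totals were used. Each list was assigned by the sample it was deposited with, although the number it carries is 1 higher than the sample's in the labels. Starts are written from 1.

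Gaps run from the end of one peak to the start of the next peak of the list, and the neighbour could be any peak of the list. Peaks or spans overlapped when they shared at least 1 bp. The even scatter was computed per chromosome from the peak widths and the interior length, without resampling, and checked on simulated placements. Chains were also counted with bedtools 2.31.1, which gave the same numbers. Shares have exact (Clopper-Pearson) 95% intervals, and a count of 0 was read as allowing 3. Members of the same cluster are not independent, so all intervals over members are too narrow. Reads or peaks of 1 library are not replicates.

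The members, the rule and the other choices were made with earlier results of these data known. Named in the text are the clusters at places with a cluster in several libraries and, per library, the 3 clusters with the most peaks and the 3 with the highest score. Gene annotation and sequence of mm9 were not used here. The computations ran in Python 3.11.15 with pandas 2.3.3, numpy 2.4.6, matplotlib 3.10.9 and scipy 1.17.1.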

Additional observations from a re-analysis of the deposited data

How the results depend on the processing

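Of 81 values recomputed under alternatives, 57 stayed within 1.5 times (counts) or within the interval of the reported value (ratios to the computed number), and 34 of 36 ratios were above 1. The exceptions below 1 were RbΔL/+ with equal numbers of top peaks (0.946) and Rb-/- with a gap of 50 kb (0.938). A gap of 10 kb gave 53 clusters in Rb+/+, 55 in RbΔL/+ and 11 in Rb-/-, and a ratio of 1.75 in RbΔL/ΔL. A gap of 50 kb gave 227, 260, 66 and 37 clusters in Rb+/+, RbΔL/+, RbΔL/ΔL and Rb-/-, and 9 shared places. A score of at least 100 gave 8, 6, 3 and 6 clusters and 3 shared places, on chromosomes 2, 11 and 17. The ratios were 1.94, 36.1, 544 and 1.97, where the cut leaves few peaks in the ΔL libraries. Equal numbers of top peaks gave 24, 16 and 20 clusters in the first 3 libraries and a ratio of 1.49 in Rb+/+. With peaks within 1000 bp joined, 3 shared places were left, on chromosomes 2, 9 and 11, since each library then had 1 peak at the place on chromosome 17, and RbΔL/+ had 1 at the place on chromosome 15. At the place on chromosome 2 the joining left clusters in 2 libraries, RbΔL/+ and RbΔL/ΔL, instead of 4. The peaks of Rb+/+ and of Rb-/- there merged into 1. The cause of the other shifts was not tested. The ends kept out (5 or 20 Mb), a neighbour inside the autosome and, added after the data were seen, leaving out the shared places gave no value outside these limits. List length did not follow the total of the deposited read counts per repeat class. RbΔL/+, with the smallest total (13731924), had 3789 peaks, and Rb-/-, with 16703500, had 1632. How these totals relate to the number of reads used to call peaks is not given, so they are not a measure of depth for the lists. No paired analysis was possible because each genotype has 1 library.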

Other observations

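With a gap of 50 kb, the 4 shared places that were not seen at 20 kb lay on chromosome 2 at 142042170 to 142079057, chromosome 3 at 79915852 to 79969378, chromosome 9 at 35112687 to 35157453 and chromosome 17 at 27377179 to 27448671. Each had clusters in 2 libraries.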
